A study of Homo sapiens with 16 samples.

Results

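RPMI-8226 is an established human multiple myeloma cell line, grown from malignant plasma cells. The comparison described here sets RPMI-8226 cells given GSK126, at 1 µM for 6 days, against RPMI-8226 cells given only the solvent DMSO, with 2 biological replicates in each group, each on its own 1-colour array. These are 4 of the 16 arrays of the study. The other 12 hold RPMI-8226 cells given UNC0638 or both inhibitors (1 µM each) and the same 4 treatments in MM.1S, a second myeloma line. The labels name no genetic change in any group, so the drug was the only labelled difference, and each line comes from 1 tumour. The 4 arrays were chosen by the labels alone. The values of an array are spot intensities, given here as log2 levels relative to the 75th percentile of that array, so that 0 is the brightness at that percentile and 1 unit is a doubling.

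EZH2 is the catalytic subunit of Polycomb repressive complex 2 (PRC2), which trimethylates lysine 27 of histone H3 (H3K27me3). The mark is associated with silencing of developmental and lineage genes, and loss of PRC2 activity is known chiefly for the return of transcripts from genes that a cell normally keeps silent. In germinal-centre B cells EZH2 holds back plasma cell differentiation, and myeloma cells, which derive from plasma cells, often carry high EZH2. GSK126 competes with the methyl donor in the catalytic site and leaves the EZH2 protein in place. UNC0638 inhibits G9a (EHMT2) and its partner GLP (EHMT1), which dimethylate H3K9.

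Of 50599 probes, 21962 were well above background on both arrays of DMSO or of GSK126 and were tested. Between 46.5% and 48.2% of the spots of these 4 arrays were well above background, and replicates correlated across the tested probes with r = 0.987 in either group. All 9 plasma cell markers looked for (among them SDC1, TNFRSF17, IRF4, PRDM1, XBP1 and CD38) were above background on both DMSO arrays, as were all 3 markers of the MAF program that this line carries (MAF, ITGB7 and CCND2). Of the B cell markers only CR2 was, while MS4A1, PAX5 and CD22 were not. Other lineages had 5 of 7 T and NK cell markers, 4 of the 6 myeloid markers with a probe, 3 of 5 epithelial markers, 1 of 5 erythroid and platelet markers and 1 of 5 stromal markers above background before any drug, with CD3E, MPO, KRT19, HBB and COL1A2 not above it. All RPMI-8226 arrays came from 1 slide and 1 scan.

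Most transcripts that passed the test were higher with GSK126. In limma with Benjamini-Hochberg adjustment over all tested probes, 135 probes of 116 genes rose (0.615% of those tested) and 20 probes of 16 genes fell (0.0911%). Of the rises 133 were past 2-fold, and of the falls 17. The median change was 2.22 on the log2 scale among the rises and -1.15 among the falls, against -0.06 over all tested probes. By direction alone there was little or no such excess. At unadjusted p under 0.05 there were 1212 probes higher and 1144 lower, the calls included, and of 15253 genes 6468 had a change above 0 and 8785 at or below it. Among large changes it reached beyond the calls. Past 2-fold with groups apart, called or not, 580 probes were higher and 128 lower. The 2 GSK126 arrays lay beyond both DMSO arrays for every called probe, as they did for 38% of all tested probes. In 51 of the 135 rises (37.8%) neither DMSO array was well above background, which held for 213 of all tested probes (0.97%). Such probes enter the test only through the GSK126 group, so they had to be higher there. A further 79 rises were above background on all 4 arrays.

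**Figure D1:**
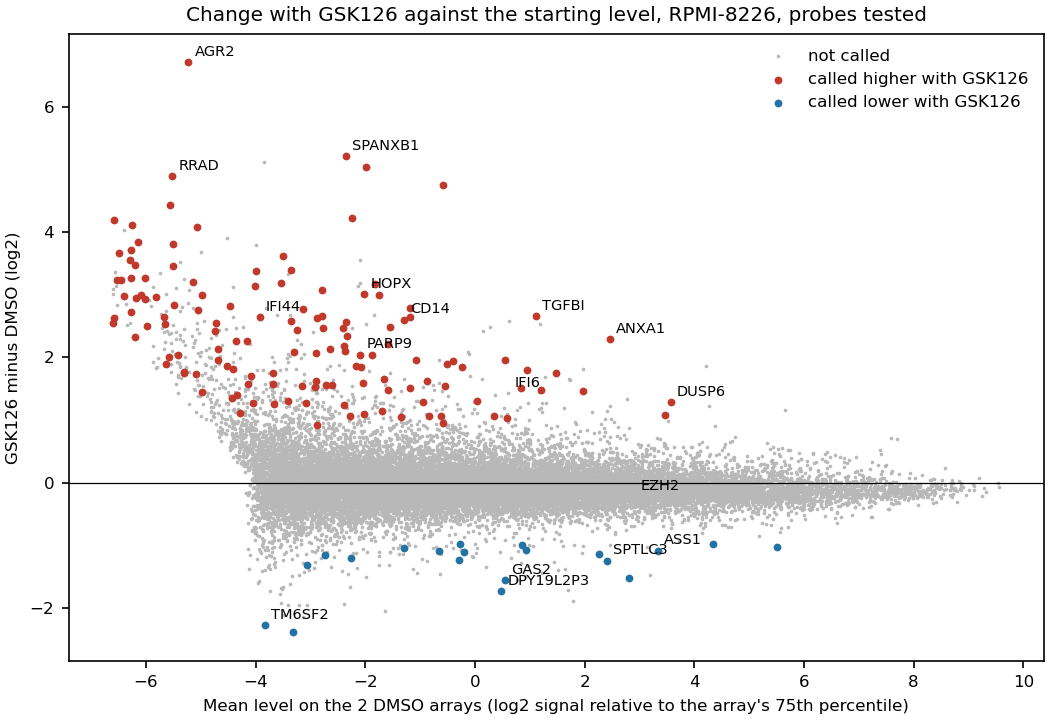
Each point is a probe tested in RPMI-8226, with its mean level on the 2 DMSO arrays on the x axis and GSK126 minus DMSO on the y axis, both log2. Red points are the 135 rises and blue points the 20 falls. The rises reach 6.72 and lie mostly left of 0 on the x axis, and the falls reach -2.39. The empty corner at the lower left is where a probe would be below background in both groups and was not tested.

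The counts depend on single arrays, since 2 arrays a group give little estimate of the spread. Without 1 array of the fit between 35 and 102 probes were called higher and between 4 and 27 lower. Without GSK126 replicate 1 the rises numbered 35, of which 15 were among the 135, without DMSO replicate 1 they numbered 52, without DMSO replicate 2 they numbered 35, and without a UNC0638 array or an array of both inhibitors 88 or 77. The falls numbered 4 without GSK126 replicate 1 or without either UNC0638 array, 8 without DMSO replicate 2 and 6 without either array of both inhibitors. With the replicate number as a block, 434 probes rose (1.98%) and 86 fell (0.392%), and these held all 135 rises and all 20 falls. No called probe changed direction in any of these fits.

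EZH2 itself did not pass the test. Its levels were 2.84 and 2.98 on the DMSO arrays and 2.62 and 2.77 on the GSK126 arrays (log2 change -0.21 ± 0.14 SE, limma adjusted p = 0.631), so the groups did not overlap but lay close together. Of 13 PRC2 subunits and cofactors tested none was called, with a median log2 change of -0.05 against -0.05 over all 15253 genes tested. SUZ12, the PRC2 subunit needed for the complex to hold together, had a log2 change of -0.21 ± 0.14 (limma adjusted p = 0.634). Of 19 subunits of PRC1, which binds H3K27me3 and ubiquitinates H2A, none was called either. RNF2, its E3 ligase, went from -0.37 and -0.46 to 0.47 and 0.53 by 1 probe, a log2 change of 0.91 ± 0.14 that lay just outside the threshold (limma adjusted p = 0.0506, and 0.0248 with the replicate block). A second RNF2 probe had 0.41 without a call (limma adjusted p = 0.531). EHMT2, the target of UNC0638, had a log2 change of -0.06 ± 0.22 (limma adjusted p = 0.944).

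The largest rise was AGR2, a protein disulphide isomerase of mucus-secreting epithelia. It was not well above background in DMSO (-5.79 and -4.66) and stood at 1.55 and 1.43 with GSK126, at least 59.1-fold higher (limma adjusted p = 0.00408). SPANXB1, a protein of the sperm nucleus whose gene has near-identical copies on the X chromosome (the array lists the probe as SPANXB2), went from -2.67 and -2.02 to 2.99 and 2.75, a 37.1-fold rise (log2 change 5.21 ± 0.45, limma adjusted p = 0.0105). RRAD, a small GTPase that restrains calcium channels, went from -5.83 and -5.21, below background, to -0.41 and -0.83, at least 13.7-fold higher (limma adjusted p = 0.0378). In all of these the lower GSK126 array lay more than 4 log2 units above the higher DMSO array.

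MAF, a transcription factor that this line overexpresses, had a log2 change of -0.17 and was not called. ELF3, an ETS factor of epithelia, went from -5.57 and -4.58, below background, to -1.23 and -0.77, at least 10.5-fold higher (limma adjusted p = 0.0105).

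**Figure D2:**
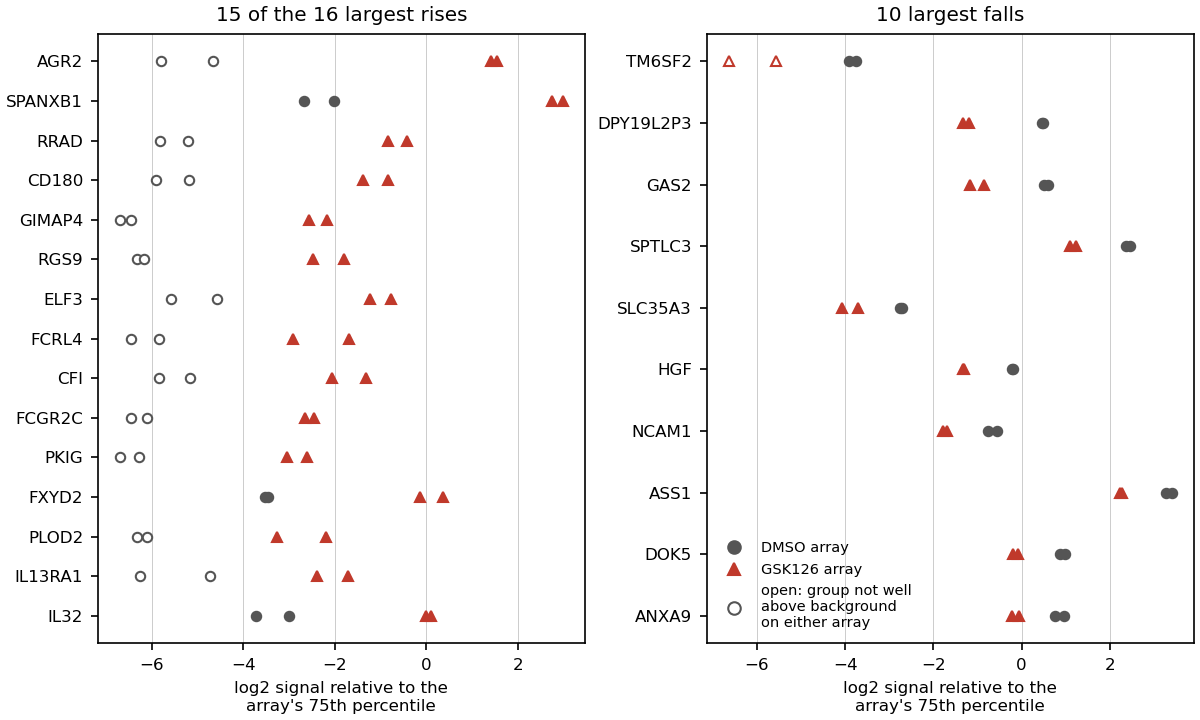
Levels on each of the 2 DMSO arrays (grey circles) and 2 GSK126 arrays (red triangles) of RPMI-8226, as log2 signal relative to the 75th percentile of the array, for 15 of the 16 genes with the largest called rises (left) and the 10 with the largest called falls that carry a gene name (right). Open symbols mark a group with neither array well above background. The genes were picked among called probes whose groups do not overlap, as those of 38% of all tested probes do not. Of the 15 rises 12 start below background.

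CD180, a Toll-like receptor homologue of B cells, went from -5.92 and -5.20 to -1.39 and -0.85, at least 9.69-fold higher (limma adjusted p = 0.00647). GIMAP4, a GTPase of lymphocytes, went from -6.69 and -6.46 to -2.56 and -2.18, at least 4.06-fold higher (adjusted p = 0.00512). FCRL4, an Fc receptor-like protein of memory B cells, went from -5.85 and -6.46 to -1.70 and -2.92, at least 4.25-fold higher (adjusted p = 0.0445). FCGR2C, an Fc receptor for IgG whose gene is nearly identical to FCGR2B and FCGR2A in parts, was at least 3.57-fold higher (adjusted p = 0.00408). None of these 4 was above background on a DMSO array. They entered the test only through the GSK126 group, so they had to be above background on both of its arrays.

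RGS9, which speeds the turning off of G proteins, was at least 4.78-fold higher (limma adjusted p = 0.019), PKIG, an inhibitor of protein kinase A, at least 2.97-fold (adjusted p = 0.00858) and PLOD2, a lysyl hydroxylase of collagen, at least 3.17-fold (adjusted p = 0.0134). The PKIG rise was that of 1 probe of 3, since the others changed by 0.83 and -0.16 on the log2 scale and were not called. FXYD2, a regulator of the sodium pump, went from -3.53 and -3.47 to 0.38 and -0.14 (12.3-fold, adjusted p = 0.0216). IL13RA1, a receptor chain for interleukins 4 and 13, went from -2.81 and -2.77 to 0.07 and 0.50 by the probe that was above background in DMSO (8.46-fold, adjusted p = 0.00512), and IL32, a cytokine of lymphocytes, from -3.72 and -3.00 to 0.10 and -0.01 (10.6-fold, adjusted p = 0.0119).

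Myeloid genes as a group stood well above the rest. Of 27 tested members, 6 rose and none fell, and 26 had a change above 0, with a median of 1.28 (1.06 with members below background in DMSO at their bound) against -0.05 over all genes tested, where 0.741% were called higher (22.2% of these members). With the replicate block 14 rose, against 2.35% of all genes. This list and those below were chosen with earlier results of these data known. Their shares and medians therefore describe the lists and are not a test of enrichment. CD14, the monocyte co-receptor for bacterial lipopolysaccharide, went from -1.50 and -1.08 to 1.17 and 1.46 (6.08-fold, log2 change 2.60 ± 0.25, limma adjusted p = 0.0126). ANXA1, a phospholipid-binding protein abundant in phagocytes, went from 2.37 and 2.56 to 5.01 and 4.51 (4.91-fold, adjusted p = 0.0126). The arrays of both genes were far apart between groups.

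Other called members were FCGR2C, described above, FCGR2A (log2 change 2.08) and MYO1F, a myosin of neutrophils (1.89). Those called only with the block were S100A9, ITGAM, CSF1R, S100A8, TFEC, LILRB1, SLA and ADGRE1, with log2 changes between 1.06 and 3.15. Several genes at the centre of the myeloid program were not called, as SPI1, the factor PU.1, had 0.17, CD33 0.08, CSF3R 0.15 and CD68 0.13. Among the myeloid markers used to check the line, MPO stayed below background on all 4 arrays. The log2 of the summed level of these markers was 2.73 and 3.30 on the DMSO arrays and 3.28 and 3.96 on the GSK126 arrays. In bulk RNA more cells of a type and more RNA per cell cannot be told apart.

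Of 23 B cell genes tested 4 rose (17.4%, against the 0.741% of all genes) and none fell (6 with the block), with a median change of 0.39. Beside CD180 and FCRL4 these were BCL6, the repressor that keeps germinal-centre B cells from becoming plasma cells, and MME (CD10), a peptidase of early and germinal-centre B cells. BCL6 went from -2.71 and -2.49 to -1.21 and -0.86 (2.96-fold, log2 change 1.56 ± 0.17, limma adjusted p = 0.021). MME went from -0.41 and -0.70 to 1.04 and 0.93 (2.90-fold, adjusted p = 0.0238), and both of its other probes rose, by 1.505 and 1.63. Genes of the B cell receptor pathway were not among the rises, with BTK at -0.29, BLNK at -0.32 and CD79A at 0.44, none of them called.

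Plasma cell identity genes were lower in most cases but none passed the test. Of 20 tested members 17 had a change below 0, with a median of -0.22 (0 called in either direction, also with the block). IRF4, on which myeloma cells depend, stood at 2.89 and 2.52 in DMSO and at 2.41 and 2.47 with GSK126 (log2 change -0.27 ± 0.18, limma adjusted p = 0.648). PRDM1, which drives plasma cell differentiation, had -0.40 ± 0.21 (adjusted p = 0.561) and TNFRSF17, the receptor BCMA, -1.02 ± 0.41 (adjusted p = 0.442). KLF2, a factor of plasma cell homing, went from -0.98 and 0.26 to -1.47 and -0.46. Its groups overlapped, though it was lower with GSK126 in both same-numbered pairs (adjusted p = 0.79, and 0.123 with the block).

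T and NK cell genes gave 2 rises among 19 tested (10.5%, against 0.741% of all genes, and 6 with the block), with a median of 0.43. CD3D, a chain of the T cell receptor complex, went from -2.59 and -2.70 to -0.01 and -1.003 (4.41-fold, limma adjusted p = 0.0381). EPHB6, a kinase-dead ephrin receptor of thymocytes, went from -1.99 and -2.35 to -0.05 and -0.56 (3.64-fold, adjusted p = 0.0246). CD3E, another chain of the same complex, was below background on all 4 arrays, and CD2 (-0.05) and CD8A (-0.45) were not called. CD3G, a further chain of the complex, and GZMB had 1.33 and 2.02, also without a call. The T and NK markers summed to log2 levels of 1.00 and 0.94 in DMSO and 1.55 and 1.26 with GSK126. Whether rare cells of other types contribute was not tested.

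**Figure D3:**
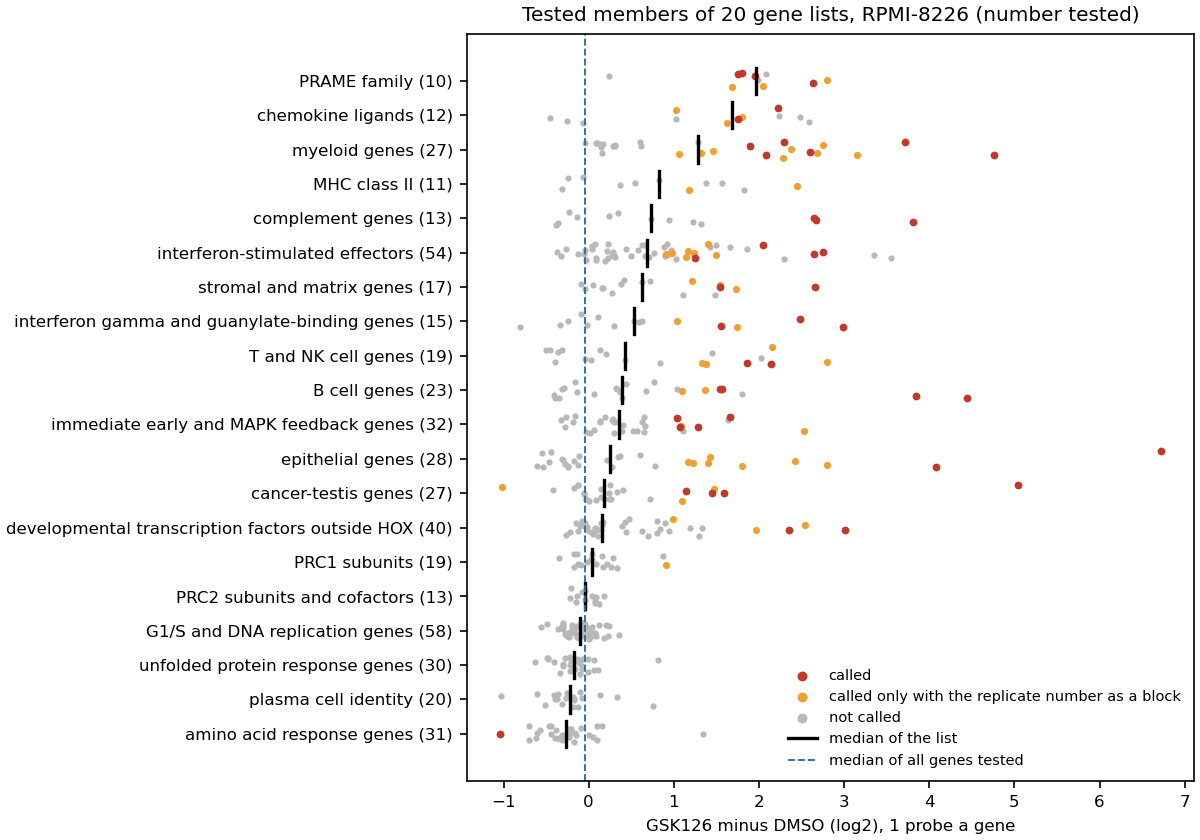
Log2 change with GSK126 of each tested member of 20 gene lists in RPMI-8226, 1 probe a gene, with the number tested in parentheses. Red members were called, orange members were called only with the replicate number as a block, black bars are list medians and the dashed line is the median of all genes tested (-0.05). Lists of immune, PRAME and chemokine genes lie to the right of it, and plasma cell, unfolded protein response and amino acid response genes to its left.

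A few chemokines, cytokines and cytokine receptors rose. Of 12 tested chemokine ligands 2 rose (16.7%, against 0.741% of all genes, and 5 with the block), with a median of 1.69 (1.57 at the bound). CXCL8, which draws neutrophils, went from -1.25 and -1.92 to 0.92 and 0.35 (4.67-fold, limma adjusted p = 0.0445, with a second probe at 1.37 and not called), and CXCL6, its relative on chromosome 4, from -3.64 and -3.72 to -1.96 and -1.88 (3.38-fold, adjusted p = 0.0136). CXCL3 and CXCL2, of the same cluster, had 1.80 and 1.62 and were called only with the block. CCL2 and CCL3 had 2.59 and 2.48 and were not called. Of 31 cytokines and cytokine receptors 3 rose (9.68%, and 8 with the block), namely IL32, IL13RA1 and GDF15, a stress cytokine of the TGF-β family (4.20-fold, adjusted p = 0.0359).

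Secreted complement regulators were among the rises. CFI, the protease that cleaves C3b and C4b, was below background in DMSO (-5.16 and -5.84) and at -2.07 and -1.31 with GSK126, at least 6.52-fold higher (limma adjusted p = 0.0105). CFHR3, whose gene belongs to a family of similar copies, went from -2.28 and -3.31 to 0.20 and -0.45 (6.36-fold, adjusted p = 0.0359), and its probe may share signal with them. The membrane-bound regulators CD46, CD55 and CD59 had -0.36, -0.38 and -0.23 and were not called. Of 13 complement genes tested 3 rose (23.1%, against 0.741% of all genes) and none fell.

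Interferon-stimulated genes encode the antiviral effectors switched on by interferon through factors that bind the interferon-stimulated response element (ISRE). Of 54 effectors tested 4 rose (7.41%, against 0.741% of all genes) and none fell (11 with the block, against 2.35%), and 47 had a change above 0, with a median of 0.69. XAF1, a pro-apoptotic protein, was below background in DMSO (-5.05 and -5.05) and at -1.90 and -2.69 with GSK126, at least 4.28-fold higher (limma adjusted p = 0.0136), while a second probe had 2.05 without a call. IFI44 went from -4.02 and -3.82 to -0.71 and -1.84 (6.28-fold, log2 change 2.65 ± 0.35, adjusted p = 0.0323). PARP9, which with DTX3L modifies chromatin in the interferon response, went from -1.80 and -2.39 to 0.08 and -0.18 (4.13-fold, adjusted p = 0.0236), with a second probe at 1.17 and not called. TDRD7, which restricts virus growth, went from -2.42 and -2.36 to -0.997 and -1.30 (2.37-fold, adjusted p = 0.0436).

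The effectors differed between the replicates. For 36 of the 54 both GSK126 arrays lay above both DMSO arrays and for 4 below, against 14.4% and 23.8% of all genes, but the size of the change was uneven. With each GSK126 array set against the DMSO array of the same number, the median was 0.89 for replicate 1 and 0.37 for replicate 2, while it was -0.04 and -0.06 over all genes. IFI6, an effector of mitochondria, stood at 0.43 and 0.79 in DMSO and at 2.67 and 1.40 with GSK126 (log2 change 1.43 ± 0.42, limma adjusted p = 0.294). IFIT1, which binds foreign RNA, stood at -1.85 and -1.23 and at 0.26 and -0.86 (adjusted p = 0.35), and ISG15, a ubiquitin-like modifier, at 2.48 and 2.72 and at 3.76 and 3.22 (adjusted p = 0.207). In all of these the GSK126 arrays were above the DMSO arrays, with replicate 1 furthest. OAS3, which makes the messenger of RNase L, was below background in DMSO and at -2.61 and -3.57 with GSK126, at least 2.47-fold higher without a call (adjusted p = 0.209).

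**Figure D4:**
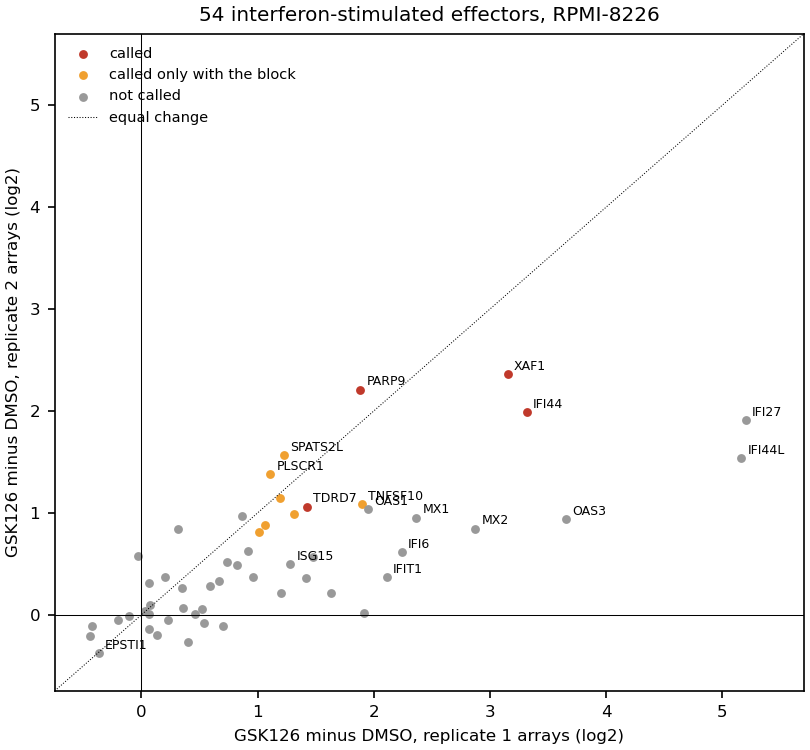
Change with GSK126 of the 54 tested interferon-stimulated effectors in RPMI-8226, as the GSK126 array minus the DMSO array of replicate 1 (x axis) and of replicate 2 (y axis), both log2, with the dotted line at equal change. Red genes were called and orange genes were called only with the block. The change was above 0 in both replicates for 42 of the 54, and IFI27, IFI44L, OAS3 and MX2 lie far below the line, with larger changes in replicate 1.

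Among the factors upstream none of 17 receptors and signal transducers was called (1 with the block). IRF9, the DNA-binding part of the interferon complex, went from -1.23 and -0.89 to 0.02 and -0.28 (0.93 ± 0.18, adjusted p = 0.106). SOCS3, which blocks JAK kinases downstream of cytokine receptors, went from -2.45 and -2.30 to -0.37 and -0.16 (4.32-fold, log2 change 2.11 ± 0.14, adjusted p = 0.00512). Of 15 interferon gamma and guanylate-binding genes 3 rose (20%, against 0.741% of all genes, and 5 with the block), with a median of 0.53. These were UBD, a ubiquitin-like protein of dendritic cells (at least 1.97-fold, adjusted p = 0.012), CXCL9, which draws activated T cells (from -1.47 and -1.64 to 0.68 and 1.19, 5.604-fold, adjusted p = 0.016), and GBP4, a guanylate-binding protein (2.95-fold, adjusted p = 0.0359). Antigen presentation genes were not called, with medians of 0.15 over 19 MHC class I and peptide loading genes and 0.82 over 11 MHC class II genes, of which HLA-DPB1 and HLA-DMA were called only with the block.

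The promoters of the called interferon genes are shown because 3 of them hold the core of the ISRE, searched as GAAA, any 2 bases and GAAA again, on both strands, from 250 bases before to 50 after the start in RefSeq (GRCh38.p14). The match is in capitals. CXCL9, IFI44 and GBP4 hold it, and the windows of PARP9, TDRD7, UBD, XAF1 and SOCS3 do not hold these letters. For comparison the window of IFI6, which was not called, is given too, at 1 of its 3 matches. All are written 5′ to 3′ on the strand of the gene.
CXCL9 (chr4:76007636-76007715, minus strand): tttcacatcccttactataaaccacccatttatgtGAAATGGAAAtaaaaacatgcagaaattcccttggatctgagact
IFI44 (chr1:78649736-78649788, plus strand): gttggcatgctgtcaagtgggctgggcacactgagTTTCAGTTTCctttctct
GBP4 (chr1:89198927-89198956, minus strand): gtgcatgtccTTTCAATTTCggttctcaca
IFI6 (chr1:27672241-27672320, minus strand): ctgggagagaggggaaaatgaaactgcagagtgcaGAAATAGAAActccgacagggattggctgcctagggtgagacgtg
Of the 97 protein-coding genes among the rises that have a promoter in the table (88.2%), 5 hold the core (5.15%), the other two being HMSD and CCDC71L, against 2.87% of 9939 tested protein-coding genes. Of the 43 tested interferon-stimulated effectors with a promoter 27 hold it (62.8%), while IFI44 alone does among the effectors that were called. A match is a description of the letters and not of binding.

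The promoters of the rises were also poorer in CpG than those of the tested genes at large. The ratio of observed to expected CpG over the same 300 bases had a median of 0.64 among the rises, with quartiles of 0.33 and 0.84, and of 0.84 among all tested genes, with quartiles of 0.68 and 0.95. The rises that were above background on both DMSO arrays had a median of 0.52 and those below it on both 0.70, against 0.84 and 0.69 for all tested genes of the same kind, so the lower median was that of the genes already transcribed in DMSO. The 100 bases before the start are shown for 4 of the largest rises that differ in this ratio, AGR2 with 0.42, ELF3 with 0.27, RGS9 with 0.77 and PLOD2 with 0.96, with each CG pair in capitals.
AGR2 (chr7:16805000-16805099, minus strand): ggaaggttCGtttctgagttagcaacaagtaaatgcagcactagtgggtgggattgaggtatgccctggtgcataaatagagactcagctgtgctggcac
ELF3 (chr1:202010487-202010586, plus strand): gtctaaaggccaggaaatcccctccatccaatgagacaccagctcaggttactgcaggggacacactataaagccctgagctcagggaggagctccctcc
RGS9 (chr17:65137270-65137369, plus strand): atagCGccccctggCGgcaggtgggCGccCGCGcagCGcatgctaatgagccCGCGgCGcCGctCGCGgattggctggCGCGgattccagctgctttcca
PLOD2 (chr3:146161185-146161284, minus strand): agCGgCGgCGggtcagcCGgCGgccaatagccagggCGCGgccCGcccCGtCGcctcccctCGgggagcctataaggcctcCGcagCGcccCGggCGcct
AGR2 and ELF3 hold 1 and 0 CG pairs here, and RGS9 and PLOD2 hold 14 and 15, yet all 4 rose from below background.

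Among germline genes, members of the PRAME family rose. Of 10 tested genes of the PRAME family 4 rose (40.0%, against 0.741% of all genes) and none fell (7 with the block), all 10 had a change above 0, and the median was 1.97 (1.90 at the bound), the highest of the 39 lists. PRAMEF14, listed on the array under the name PRAMEF13, went from -2.74 and -3.04 to -0.39 and -0.11 (6.21-fold, limma adjusted p = 0.0349), and its second probe rose by 2.78. PRAMEF11 went from -0.28 and -0.54 to 1.67 and 1.42 (3.86-fold, adjusted p = 0.0221). PRAMEF5 and PRAMEF4 rose 3.49-fold and 3.37-fold (adjusted p = 0.0302 for either), with a second PRAMEF5 probe at 1.38 and not called. These genes are near-identical copies in 1 cluster on chromosome 1, so their probes may measure shared transcripts and do not count as independent rises. PRAME itself, which lies on another chromosome, had 0.23 and was not called.

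Of 27 cancer-testis genes 4 rose (14.8%, against 0.741% of all genes), with a median of 0.18. With the block 6 rose and 1 fell. Beside SPANXB1 the 4 rises were COX7B2, a testis form of a respiratory chain subunit, from -1.97 and -2.10 to -0.37 and -0.52 (3.02-fold, limma adjusted p = 0.0378), PAGE2 (at least 1.83-fold, adjusted p = 0.0445) and HMSD (2.20-fold, adjusted p = 0.0436). The MAGE and GAGE members, the CTAG genes and SSX2 and SSX3 lay between -0.42 and 0.27, and none was called.

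Developmental genes are textbook targets of Polycomb. Of 39 HOX genes 6 were tested, and 1 of them (16.7%, against 0.741% of all genes), HOXB2, rose, from -3.03 and -2.77 to -1.26 and -1.29 (3.08-fold, limma adjusted p = 0.0136), while its second probe had 0.78 without a call. Of 138 other developmental transcription factors 40 were tested and 2 rose (5.0%, and 5 with the block), with a median of 0.16. HOPX, an atypical homeodomain protein, went from -2.29 and -1.74 to 0.75 and 1.24 (8.06-fold, adjusted p = 0.0445) by 1 of its 2 probes, the other changing by 0.01. PRDM8, a histone methyltransferase relative of the nervous system, went from -2.39 and -2.26 to 0.08 and -0.03 (5.10-fold, log2 change 2.35 ± 0.15, adjusted p = 0.00512). The other 98 were not above background on both arrays of either group, so that no rise was detectable among them.

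Of 16 BMP, ID and SMAD genes 2 rose (12.5%, against 0.741% of all genes, and 4 with the block). CHRD, a secreted BMP antagonist, went from -3.77 and -2.92 to -0.55 and -0.98 (5.99-fold, limma adjusted p = 0.0259), while its second probe changed by -0.40 without a call. ID3, an inhibitor of E proteins, went from 1.10 and 1.32 to 2.89 and 2.48 (2.79-fold, adjusted p = 0.0337).

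Epithelial genes beyond AGR2 and ELF3 gave no further calls. Of 28 tested members 2 rose (7.14%, against 0.741% of all genes, and 9 with the block), and 13 were at or below 0, with a median of 0.25. KRT8 and KRT18, simple epithelial keratins that were already above background in DMSO, had 0.27 and 0.22, and EPCAM had -0.53. Of 17 stromal and matrix genes 2 rose (11.8%, and 5 with the block), with a median of 0.63. TGFBI, a matrix protein induced by TGF-β, went from 1.14 and 1.08 to 3.86 and 3.69 (6.33-fold, log2 change 2.66 ± 0.20, limma adjusted p = 0.00647), and SRPX2, a secreted ligand of the urokinase receptor, from -3.21 and -3.09 to -1.67 and -1.55 (2.91-fold, adjusted p = 0.0112). The fibrillar collagen genes COL1A2 and COL3A1 were below background on both DMSO arrays.

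Of 32 immediate early and MAPK feedback genes 4 rose (12.5%, against 0.741% of all genes, and 6 with the block), with a median of 0.35. ERRFI1, which inhibits the EGF receptor, went from -1.62 and -1.70 to -0.08 and 0.08 (3.17-fold, limma adjusted p = 0.0238). DUSP6, the phosphatase of ERK, went from 3.62 and 3.53 to 4.84 and 4.87 (2.43-fold, adjusted p = 0.0219). IER3 and TSC22D1 rose 2.10-fold and 2.06-fold (adjusted p = 0.0436 and 0.0282), and both lost the call whichever array was left out. IER3 was also the 1 call among 23 NF-κB pathway genes (4.35%, against 0.741% of all genes). Of 18 S100 and annexin genes 2 rose (11.1%, against 0.741% of all genes). These were ANXA1 and S100A10, the partner of annexin A2 (2.12-fold, limma adjusted p = 0.0378), while ANXA9 fell.

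The falls were smaller than the rises and formed no list. DPY19L2P3, a transcribed pseudogene, went from 0.49 and 0.47 to -1.33 and -1.18 (log2 change -1.74 ± 0.13, limma adjusted p = 0.00647), and its other probes changed by -0.71 and -1.18 without a call. GAS2, a cytoskeletal protein made in growth arrest, went from 0.51 and 0.59 to -1.17 and -0.84 (-1.56 ± 0.16, adjusted p = 0.0156). SPTLC3, a subunit of the first enzyme of sphingolipid synthesis, fell on all 3 probes, by 1.25, 1.24 and 0.99 on the log2 scale. ASS1, which makes argininosuccinate in arginine synthesis, went from 3.40 and 3.28 to 2.23 and 2.27 (-1.09 ± 0.15, adjusted p = 0.0378), and its second probe fell by 1.04. In these genes the 2 arrays of a group lay close together and the groups far apart.

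HGF, a growth factor that myeloma cells secrete, went from -0.20 and -0.22 to -1.32 and -1.33 (log2 change -1.12 ± 0.17, limma adjusted p = 0.0445), and its second probe had -1.05 without a call. NCAM1 (CD56), an adhesion molecule of malignant plasma cells, went from -0.75 and -0.56 to -1.79 and -1.70 (-1.09 ± 0.17, adjusted p = 0.0458), though its second probe had -0.50 and was not called. DOK5, a docking protein of receptor kinases, fell by 1.07, ANXA9 by 0.99 and SLC35A3, a Golgi transporter of nucleotide sugars, by 1.15 (limma adjusted p = 0.0323, 0.0401 and 0.0436). The SLC35A3 probe was above background on only 1 GSK126 array, and a second SLC35A3 probe had -0.35 without a call. TM6SF2, a protein of lipid droplets in liver, was above background in DMSO (-3.74 and -3.90) but not with GSK126, at least 1.28-fold lower (adjusted p = 0.039). A further 7 falls were probes with only a code name.

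Genes of growth and stress gave almost no calls. Of 58 G1/S and DNA replication genes none was called, 13 were above 0 and the median was -0.10, with SKP2, which marks p27 for destruction, at -0.56 ± 0.35 (limma adjusted p = 0.622). None of 45 G2 and mitosis genes (median -0.06), 17 BCL2 family genes (-0.01), 21 p53 targets (-0.07) or 27 cholesterol genes (-0.05) was called. With the block 3 p53 targets were called higher, DRAM1, SESN1 and CDKN1A. CDKN1A, the CDK inhibitor p21, went from -2.85 and -3.25 to -1.72 and -2.14 (log2 change 1.12 ± 0.36, adjusted p = 0.332, and 0.0227 with the block). Of 31 amino acid response genes ASS1 alone was called, 25 were at or below 0 and the median was -0.26. Of 30 unfolded protein response genes none was called, 26 were at or below 0 and the median was -0.17. The 15 housekeeping genes had a median of -0.12 with none called.

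The rises lay unevenly along the genome. Of 116 genes that rose 23 are on chromosome 1 (19.8%) and 12 on chromosome 4 (10.3%), against 10.4% and 3.26% of 15229 tested genes with a position. In all 18 of the 116 (15.5%) had another rise within 250 kb on GRCh37, as did 3.51% of the tested genes. The pairs included FCGR2A with FCGR2C, PRAMEF11 with PRAMEF4, PRAMEF14 with PRAMEF5, CXCL6 with CXCL8, HOPX with SPINK2, HLX with MTARC1, OBP2A with PAEP and IL32 with ZG16B, named here after their values were seen. Of these 8 pairs at least 3 are near copies of each other whose probes may share signal.

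The levels with GSK126 were also set against those with UNC0638, a contrast without the DMSO arrays. Over 22210 probes tested 198 were higher with GSK126 (0.891%) and 148 lower (0.666%). Of the 135 rises 124 were higher with GSK126 than with UNC0638, 81 of them called, and none was called lower. Of the 20 falls 19 were tested, and 13 were called lower with GSK126. The GSK126 arrays are shared with the main comparison, so these counts partly follow from it. The 198 and 148 became 538 and 364 with the replicate block, and 43 and 39 without GSK126 replicate 1, 37 and 48 without UNC0638 replicate 1 and 46 and 43 without UNC0638 replicate 2. The largest differences of named genes were AGR2 at 6.39, ELF3 at 4.99 and CFI at 4.92 on the log2 scale (limma adjusted p = 0.00172, 0.00406 and 0.00337). All 3 were below background with UNC0638, so these are fitted values and not bounds. SOCS3 was 3.17 higher with GSK126 than with UNC0638 (adjusted p = 0.0015).

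Other rises had no such difference. FCGR2C, above background with either inhibitor but not in DMSO, differed between them by 0.29 (limma adjusted p = 0.608). CD3D changed by 2.14 with GSK126 and 2.19 with UNC0638 (adjusted p = 0.964), CXCL6 by 1.76 and 2.24 (adjusted p = 0.314), SRPX2 by 1.54 and 1.47 (adjusted p = 0.88) and TSC22D1 by 1.04 and 0.92 (adjusted p = 0.757). A missed threshold does not show that the inhibitors act alike on these genes. With both inhibitors all 135 rises were above DMSO, with a median of 2.85 on the log2 scale against 2.22 with GSK126 alone and 0.37 with UNC0638 alone, all 3 measured from the same DMSO arrays. These medians include the 51 rises whose DMSO level was below background, whose changes are fitted values. PLOD2 was below background with DMSO and with UNC0638, and stood at -2.19 and -3.27 with GSK126 and at 0.008 and 0.30 with both inhibitors. UBD was likewise below background with DMSO and UNC0638, and stood at -3.33 and -3.50 with GSK126 and at 0.11 and -0.10 with both. DOK5 fell with GSK126 but was 0.68 above DMSO with both inhibitors.

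**Figure D5:**
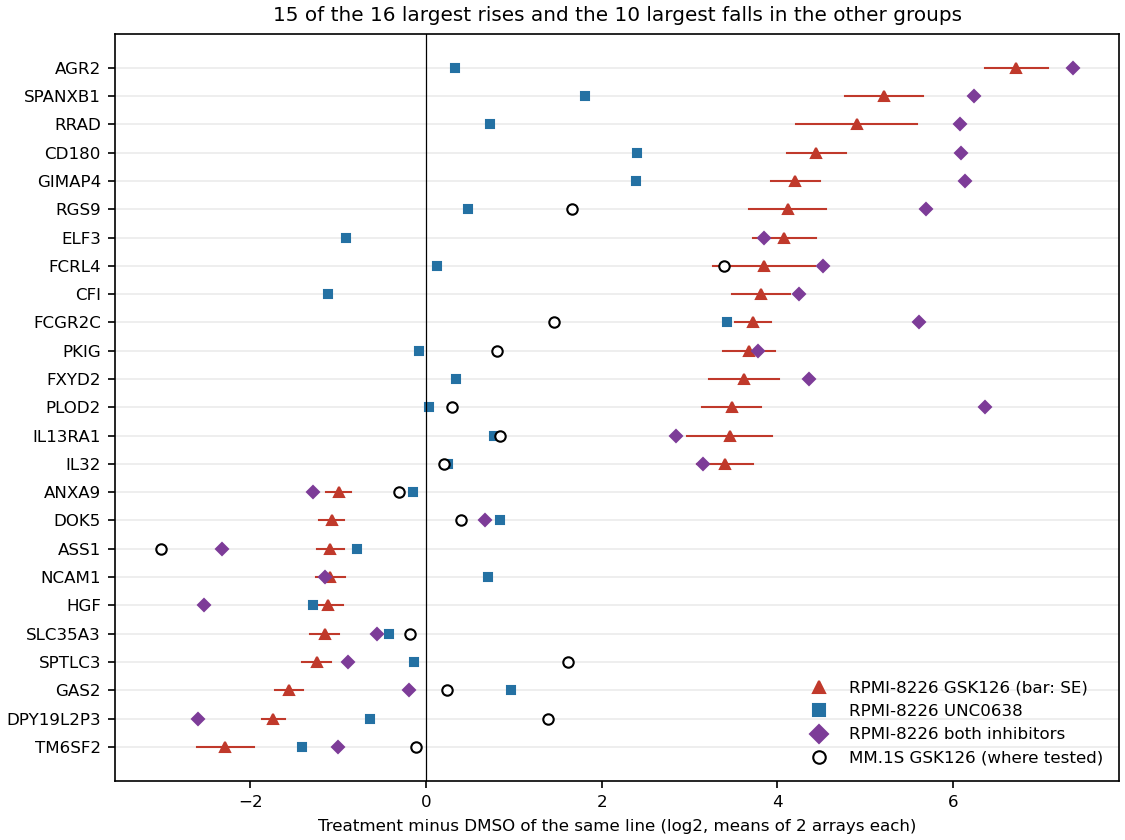
Log2 change from DMSO of 15 of the 16 largest rises and the 10 largest falls with GSK126 (red triangles, bar 1 SE), UNC0638 (blue squares) and both inhibitors (purple diamonds) in RPMI-8226, and with GSK126 in MM.1S where the probe was tested there (open circles). The changes within a line share their DMSO arrays, and those of the 12 rises below background in DMSO are fitted values. UNC0638 alone lies near 0 for most genes, CD180, GIMAP4 and FCGR2C being above 2. The MM.1S circles lie nearer 0 than the red triangles except for ASS1 and SPTLC3. Those of SPTLC3, DPY19L2P3, GAS2 and DOK5 lie on the other side of 0, the last pair at 0.24 and 0.40 without a call. The genes were picked by the red values, so circles nearer 0 partly follow from that choice.

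MM.1S shares no arrays with RPMI-8226 and gives the same contrast in a second line. There 1414 of 23950 tested probes rose with GSK126 (5.9%) and 753 fell (3.14%). Without 1 of the DMSO or GSK126 arrays there were 293 to 627 rises and 25 to 208 falls (536 and 114 without DMSO replicate 1, 419 and 62 without DMSO replicate 2, 293 and 25 without GSK126 replicate 1, 627 and 208 without GSK126 replicate 2), and without a UNC0638 array or an array of both inhibitors 302 or 475 falls. The median standard error of a log2 change was 0.122 in MM.1S and 0.193 in RPMI-8226. Whether the counts differ because of this spread was not tested. Changes past 2-fold with groups apart numbered 580 higher and 128 lower in RPMI-8226 and 809 and 136 in MM.1S. Of the 135 RPMI-8226 rises 85 were tested in MM.1S, where 41 rose, 1 fell and 35 were higher without a call. The shared 41 made up 30.4% of the RPMI-8226 rises and 2.9% of the MM.1S rises. They included ID3 (log2 change 2.32 in MM.1S, limma adjusted p = 0.00563) and HOPX (2.43, adjusted p = 0.00582). BCL6, PARP9, FCRL4 and MME were below background in MM.1S given DMSO and were at least 8.34-fold, 3.70-fold, 2.15-fold and 1.57-fold higher with GSK126 (adjusted p = 0.00379, 0.00328, 0.00471 and 0.0392). XAF1 was above background on 1 of the 2 MM.1S DMSO arrays (log2 change 3.41, adjusted p = 0.0188).

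The difference between the lines was tested in 1 fit over all 16 arrays, where 91 of 25473 probes had a larger change in RPMI-8226 (0.357%) and 118 a smaller one (0.463%). With the replicate block these were 224 and 262, without RPMI-8226 GSK126 replicate 2 they were 399 and 259, and the larger changes numbered 38 without MM.1S GSK126 replicate 1 and 52 without MM.1S GSK126 replicate 2. Of the 135 rises 54 were called larger in RPMI-8226 and none smaller, and of the 20 falls 8 differed. The RPMI-8226 arrays of the main comparison enter this difference, so these counts partly follow from how the 135 and 20 were picked. For AGR2, RRAD, SPANXB1, ELF3, CD180, GIMAP4, FXYD2, CFI, TGFBI, CXCL6 and COX7B2 no MM.1S array of DMSO or GSK126 was above background, so the difference is that of a gene measured in 1 line. CD14 was above background in both lines, with a difference on the log2 scale of 2.46 ± 0.29 (adjusted p = 0.00422). PLOD2, below background in RPMI-8226 given DMSO but above it in MM.1S given DMSO, had a fitted difference of 3.18 ± 0.38 (adjusted p = 0.00513). DPY19L2P3 and SPTLC3 fell in RPMI-8226 and rose in MM.1S, by 1.39 and 1.61 (adjusted p = 0.00284 and 0.00306 there, and 7.12e-06 and 0.000232 for the difference). Each line was hybridised on a slide of its own, so line and slide cannot be told apart in a level, while each response was taken within a slide.

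The calls of single genes rest on few arrays, and some held better than others. Of the 65 called probes named here 8 were called whichever array was left out of the fit, and 16 were lost in each of these fits. The 8 were those of IL13RA1 (the probe above background in DMSO), PRDM8, AGR2, CD180, DPY19L2P3, FCGR2C, GIMAP4 and SOCS3. The 16 were those of ANXA9, DOK5, GBP4, ID3, S100A10, TSC22D1, CXCL8, HMSD, IER3, TDRD7, HGF, NCAM1, PAGE2, SLC35A3 and both probes of ASS1. SPANXB1, TGFBI, CFI, ELF3, IL32 and PKIG lost the call without 1 array only, and every other probe in between kept it in 1 to 6 of 8 fits.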

How the data were processed

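Expression was measured on 1-colour Agilent arrays of 62976 spots. The deposited files hold spot intensities that the authors extracted with Feature Extraction 10.7 (gProcessedSignal, background-subtracted), and a series table of rounded intensities. That table equalled the spot intensities, after rounding to 3 digits, for 1007571 of 1007616 cells. Here each array's log2 intensity was centred on its 75th percentile, which removes any shift shared by all genes, control and outlier spots were left out, and spots of a probe were averaged. Probes that passed the background call on 2 of 2 arrays in at least 1 group were tested in limma 3.58.1 (R 4.3.3) over the 8 RPMI-8226 arrays, which share 1 estimate of the spread, with Benjamini-Hochberg adjustment at 0.05. The test was checked on simulated data. MM.1S was fitted likewise and the difference between lines over 16 arrays.

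"Well above background" is the scanner software's own call. Where a group had it on no array, a fold is a bound, the mean of the brighter group over the higher of each dim array's detection floor and the probe's own signal. The number of arrays, 2 a group, limits the precision. The labels call the replicates biological. In RPMI-8226 same-numbered arrays deviated together in all 6 pairs of groups (r between 0.254 and 0.415), though no label says what they share. The number was therefore taken as pairing them in the block fit and where changes are given by replicate. The main test did not model this pairing, so its calls and adjusted p are those of an unpaired fit. Named genes were the 16 largest rises and the largest falls with a name, up to 4 called members of each list (or 2 uncalled), and genes the study names. Some of these genes are not reported here. Each gene stands in a list by 1 probe. Members and lists were chosen with earlier results of these data known. Alternatives were background correction, normalization, dim-probe filter, the replicate block, the arrays in the fit, the prior and leaving out each array. Promoters came from RefSeq (GRCh38.p14).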

Additional observations from a re-analysis of the deposited data

Results flagged for a closer look

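The response to GSK126 differed between the lines for 26 named probes by the test of the difference in limma, with adjusted p below the threshold over all probes, and is given as the log2 change in RPMI-8226 less that in MM.1S. It was larger in RPMI-8226 for AGR2 (6.93), RRAD (5.46), SPANXB1 (5.33 and 5.14 by its probes), ELF3 (4.73), CD180 (4.48), GIMAP4 (4.38), FXYD2 (3.50), CFI (3.47), TGFBI (2.71), CXCL6 (1.54) and COX7B2 (1.52), none of which was above background on any MM.1S array of DMSO or GSK126. For PLOD2 (3.18), PKIG (2.87) and FCGR2C (2.27) the probe was below background in RPMI-8226 given DMSO, so these are fitted values and not measured differences, and FCGR2C was above background on only 1 MM.1S DMSO array. Among genes above background in all 4 groups it was larger for CD14 (2.46), PRAMEF5 (2.42), IL13RA1 (1.95), CHRD (1.95), ERRFI1 (1.19), PRDM8 (1.15) and IER3 (1.05). It was lower for DOK5 (-1.47), GAS2 (-1.80), SPTLC3 (-2.86) and DPY19L2P3 (-3.13). The last pair fell in RPMI-8226 and rose in MM.1S. Most named probes were picked by their change on the same RPMI-8226 arrays, so the direction of these differences partly follows from that choice.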

How the results depend on the processing

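In RPMI-8226 the 135 rises and 20 falls became 81 and 11 with quantile normalization, 19 and 1 when dim probes were kept, 434 and 86 with the replicate block, 46 and 0 with only the 4 arrays compared (581 lower at unadjusted p under 0.05) and 464 and 133 with 1 fit over 16 arrays. With probes above background on all arrays compared 78 rose. Leaving out an array gave 35 to 102 rises and 4 to 27 falls. In MM.1S the 1414 rises and 753 falls became 366 and 53 with dim probes kept, 683 and 157 with only the arrays compared and 613 and 210 with 1 fit, and the falls 1260 with normexp, 413 with the percentile of detected probes and 1980 with an intensity-dependent prior. Leaving out an array gave 293 to 1090 rises and 25 to 475 falls. Same-numbered MM.1S arrays correlated between 0.085 and 0.225, and the block gave 1742 and 1119.

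The difference between lines (91 larger, 118 smaller) became 59 and 59 with dim probes kept, 31 and 56 with all arrays above background, 224 and 262 with the replicate block and 36 and 31 with only the arrays compared, and ranged from 38 to 399 and from 82 to 259 without 1 array. GSK126 against UNC0638 (198 higher, 148 lower) became 97 and 56, 117 and 69, 538 and 364, and 108 and 90 under the same settings and 617 and 470 with 1 fit, and ranged from 37 to 245 and from 39 to 157. The cause was not tested. No RPMI-8226 call changed direction. Of uncalled genes, 4 changed sign without 1 array. EHMT2 ranged from -0.34 to 0.22 (0.12 without DMSO replicate 1), KLF2 from -1.23 to 0.011, BBC3 from -0.88 to 0.075 (0.0080 without GSK126 replicate 1) and PHF8 from -0.78 to 0.11. Signal near background limits what can be measured, since 51 rises have only a lower bound.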
